A study of Mus musculus with 3 samples.

Results

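The cytosolic ribosomal protein genes encode the proteins of the large (Rpl) and small (Rps) ribosomal subunits. They were chosen by name from the protein-coding genes of the mm9 annotation GENCODE M1, as symbols that start with Rpl or Rps and a digit, together with *Rplp0*, *Rplp1*, *Rplp2* and *Rpsa*. Names with -ps (53 genes), Rps6k kinases (10), symbols that end in l (5), *Rps19bp1* (1) and a gene of a single exon (1) were left out. This left 78 of 22367 protein-coding genes, 47 of the large and 31 of the small subunit, on 19 chromosomes. The rule keeps the paralogs *Rpl7l1* and *Rpl22l1*, since their symbols end in a digit. No read was used to choose the genes.

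FLI1 and RUNX1 are transcription factors that act in megakaryocytes, the cells that release platelets. The study precipitated both from MK Mat, mature wild-type megakaryocytes that were grown for 5 days from the fetal liver of CD1 mice (embryonic day 15 in the labels, while the methods name an earlier day). FLI1 and RUNX1 precipitates gave 1 library each, and chromatin that was not precipitated, the input, gave another. The methods describe digestion of the input by micrococcal nuclease, and sonication of the chromatin for FLI1 and RUNX1. The labels differ from the methods on the input. What the fragmentation does to folds over input was not tested. Since the DNA of 3 or more precipitates was combined in a library, the spread between cultures cannot be seen. Genes within a library are not replicates, and the comparisons between gene sets carry no p-value.

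Every cell needs ribosomes, and the genes of ribosomal proteins are expressed together at high levels from compact promoters rich in CpG. Their mRNAs begin with an uninterrupted run of pyrimidines, the 5′ terminal oligopyrimidine tract, through which their translation is adjusted to growth signals. Megakaryocytes enlarge greatly before they release platelets, and loss of 1 copy of several of these genes causes Diamond-Blackfan anaemia, a failure of red cell production. FLI1 belongs to the ETS family, whose members bind DNA around a GGAA core, whereas RUNX1 binds sequences such as TGTGGT.

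After removal of chromosome M and of repeated input positions, 62946422 FLI1, 3973856 RUNX1 and 21745220 input reads were counted. Spread evenly over the mappable genome, these would place 67.4 FLI1, 4.25 RUNX1 and 23.3 input reads in each window of 1 kb on either side of a transcription start site (TSS), so a RUNX1 value of a single gene is imprecise. The study's supplement lists more uniquely mapped tags than these files hold, somewhat more for FLI1 and many times more for RUNX1. No FLI1 or RUNX1 read in these files repeats a position and strand. How much of the gap is removed repeats cannot be told, and the RUNX1 values here describe the file only. Reads of FLI1 and RUNX1 were 50 bp long and those of the input 34 bp. The labelled cell type could be compared with promoters only, as ChIP-seq gives no expression. Of the megakaryocyte genes, 7 of 8 held a FLI1 site as defined below, the exception being *Ppbp*, beside 2 of 4 erythroid and 3 of 4 granulocyte and macrophage genes and 43% of all protein-coding genes. With so few genes the intervals of these lists overlap and do not set the megakaryocyte genes apart from the erythroid, granulocyte and macrophage genes. The megakaryocyte interval, 47.3 to 99.7%, begins only a little above the share of all genes. No gene of these lists had a CpG-dense promoter, as defined below, and 19.6% of promoters that are not CpG-dense held a site. That share lies below the megakaryocyte interval but within those of the erythroid (6.76 to 93.2%) and granulocyte and macrophage lists (19.4 to 99.4%). *Itga2b*, the integrin subunit CD41, had 614 FLI1, 12 RUNX1 and 24 input reads.

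The sequences at the FLI1 summits are shown first, because most members carried the ETS core GGAAG near the summit (64 of the 76 with a FLI1 site, 84.2%, beside 67.0% of all genes with a site). The summit is the base within 1 kb of the TSS that most FLI1 reads covered after extension to 150 bp. Printed below are 30 bases of mm9 around the ETS match nearest the summit, for 7 of the 8 members with the highest FLI1 reads relative to input. Each is written 5′ to 3′ on the strand that carries the match. CCGGAAG is in capitals or, where this longer form was not found within 50 bp of the summit, its core GGAAG. *Rpl37*, *Rpl32*, *Rps18* and *Rps7* carried the longer form and *Rpl34*, *Rps19* and *Rpl27* the core alone. The positions are chr3:130433351-130433380 (plus strand) for *Rpl34*, chr15:5066579-5066608 (plus) for *Rpl37*, chr6:115758821-115758850 (minus) for *Rpl32*, chr17:34092750-34092779 (minus) for *Rps18*, chr7:25669116-25669145 (minus) for *Rps19*, chr11:101303613-101303642 (minus) for *Rpl27* and chr12:29320815-29320844 (plus) for *Rps7*.
Rpl34: gccatgttgtacGGAAGcggacgcggggaa
Rpl37: accaagacccgCCGGAAGtagtttcctggg
Rpl32: gaggacccagagCCGGAAGtgcttcccttt
Rps18: gagaaggccgaaCCGGAAGttatagctccg
Rps19: cccttctttgggcGGAAGttgcttcagctc
Rpl27: caaagttgttggcGGAAGgagctcgtcagg
Rps7: gtgggtggaaaCCGGAAGctcttctgaaaa

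Longer stretches of 3 of these promoters show where the match lies with respect to the TSS. They hold the 120 bases just upstream of the 5′ end of the gene record, on the strand of the gene, with GGAAG or its complement CTTCC in capitals. *Rpl37* (chr15:5066493-5066612, plus strand) and *Rps7* (chr12:29320819-29320938, minus) had 1 match each and *Rpl34* (chr3:130433317-130433436, minus) had 3. In its longer form CCGGAAG the match began 23 bases from the TSS in *Rpl37* and 14 bases from it in *Rps7*, both upstream, whereas the core nearest the *Rpl34* summit was 51 bases upstream.
Rpl37: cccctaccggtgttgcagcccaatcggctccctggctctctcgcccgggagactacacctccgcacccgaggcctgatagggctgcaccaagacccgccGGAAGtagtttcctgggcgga
Rpl34: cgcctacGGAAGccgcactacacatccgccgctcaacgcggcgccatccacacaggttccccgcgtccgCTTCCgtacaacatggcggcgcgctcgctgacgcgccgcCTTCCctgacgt
Rps7: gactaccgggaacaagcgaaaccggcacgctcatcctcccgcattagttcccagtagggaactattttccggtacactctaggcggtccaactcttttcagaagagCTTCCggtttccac

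FLI1 reads were dense at nearly all of these promoters, and input reads were not. The members had between 57 and 602 FLI1 reads, with a median of 209.5, whereas the median of all protein-coding genes was 70. Input reads ranged from 5 to 29 with a median of 18 (19 over all genes), and RUNX1 reads from 2 to 17 with a median of 7 (4 over all genes). Only *Rps2*, a small subunit protein, and *Rps10* had fewer FLI1 reads than the median gene.

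The fold over input sets the share of FLI1 reads in a window, after adding 1 read, against the same share of input reads. Its median was 3.97 for the 78 members, with a range of 0.716 to 16.9 and an order-statistic 95% interval of the median of 3.48 to 4.25 over genes. The median of all protein-coding genes was 1.33. A fold of at least 2 was reached by 74 of 78 members (94.9%, exact 95% binomial interval 87.4 to 98.6%), compared with 34.2% of all protein-coding genes. Ranked among all genes, 4 members were in the top 1%, 16 in the top 5%, 33 in the top 10% and 65 in the top 25%.

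CpG-dense promoters, those with a CpG observed/expected ratio of at least 0.6 and at least 50% GC within 500 bp, form a nearer comparison, and 69 of 78 members met this definition (88.5%). Over all 9879 CpG-dense promoters the median FLI1 fold was 2.44, and 61.3% reached 2-fold. Relative to the genome-wide rate, with the input left aside, the median FLI1 reads of the members were 3.11 times that rate. Here and below, intervals of read counts and of their ratios cover counting error only. Those of shares treat genes as independent draws, although genes within a library are not replicates. For a single gene the interval is that of the ratio without the added read, whereas the fold printed before it includes that read.

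**Figure D1:**
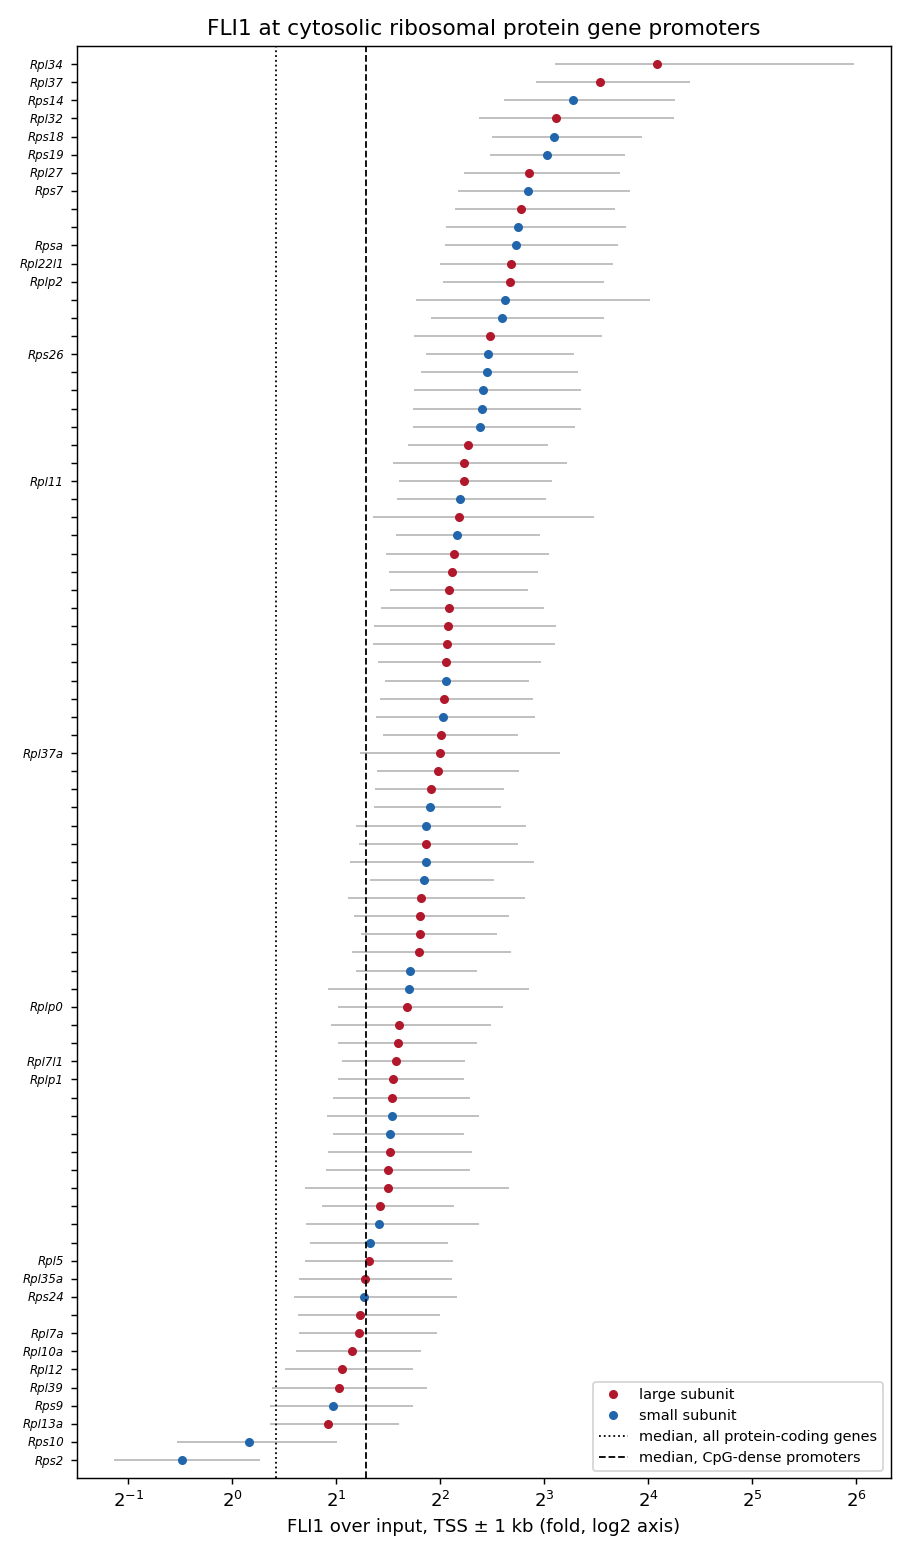
FLI1 fold over input within 1 kb of the TSS for each of the 78 cytosolic ribosomal protein genes (names for those described in the text), on a log2 axis, with points for the large (red) and small (blue) subunit and bars for the exact 95% counting interval of the ratio of reads without the added read. The dotted and dashed lines are the medians of all protein-coding genes (1.33) and of CpG-dense promoters (2.44), and 2 members, *Rps10* and *Rps2*, lie left of the dotted line.

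A FLI1 site, a window of 250 bp within 1 kb of the TSS with more reads than a Poisson background at p under 1e-05, was called at 76 of 78 members (97.4%, 91.0 to 99.7%), against 43% of all protein-coding genes. Among CpG-dense promoters 72.5% had one. All 69 CpG-dense members and 7 of the 9 others had a site, with *Rps2* and *Rps10* again the exceptions. The best window of the members held a median of 109.5 reads, which was 11.8 times its expected number. At their summits a median of 85.5 extended reads overlapped, compared with 14 over all genes and 52 over all genes with a site.

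Mitochondrial ribosomal protein genes, whose products form the ribosome inside mitochondria, and genes of the proteasome, which degrades proteins, are other large sets of broadly expressed genes. Sites were called at 74 of 77 mitochondrial ribosomal protein genes and at 39 of 42 proteasome genes, shares that overlap with that of the members within their intervals (89.0 to 99.2% and 80.5 to 98.5%). The number of reads was lower in both. Median FLI1 reads were 174 and 176.5, median folds 3.01 and 3.00, and summed folds over input 3.12 (2.97 to 3.29) and 2.91 (2.71 to 3.12), beside 4.27 (4.05 to 4.51) for the cytosolic set. Summed input reads differed as well, at 0.789 times the genome-wide rate (0.749 to 0.831) for the cytosolic, 0.914 (0.870 to 0.959) for the mitochondrial and 0.907 (0.848 to 0.968) for the proteasome set. With the input left aside, the summed FLI1 reads were 3.37, 2.85 and 2.64 times the genome-wide rate.

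**Figure D2:**
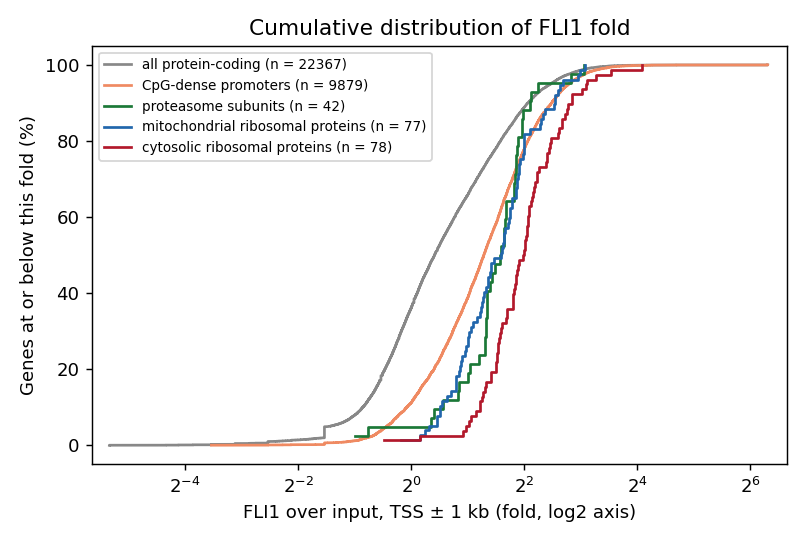
Cumulative share of genes (%) at or below each FLI1 fold over input within 1 kb of the TSS, on a log2 axis, for all protein-coding genes, CpG-dense promoters, proteasome subunits, mitochondrial ribosomal proteins and cytosolic ribosomal proteins. The red curve of the cytosolic set is the rightmost over most of its height, with a median of 3.97 compared with 3.01 and 3.00 for the mitochondrial and proteasome sets.

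Large subunit genes included the 2 highest folds. *Rpl34* had 293 FLI1, 6 RUNX1 and 5 input reads and a fold of 16.9 (8.58 to 62.8), the wide interval following from its few input reads. *Rpl37* had 602 FLI1, 14 RUNX1 and 17 input reads and a fold of 11.6 (7.58 to 21.1). Its 602 FLI1 reads and its summit of 224 extended reads were the highest of all members, and the summit stood above that of *Itga2b* (195).

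Also at the upper end were *Rpl32* with 299 FLI1, 7 RUNX1 and 11 input reads (8.64-fold) and *Rpl27* with 375, 7 and 17 reads (7.22-fold). All 47 large subunit genes had a FLI1 site (43% of all protein-coding genes) and 46 reached 2-fold (34.2%). The exception was *Rpl13a*, a protein known to leave the ribosome in inflammatory signalling, with 152 FLI1, 10 RUNX1 and 27 input reads and a fold of 1.89 (1.29 to 3.05).

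Other large subunit genes at the lower end were *Rpl39* (117 FLI1, 6 RUNX1 and 19 input reads, 2.04-fold), *Rpl12* (167, 3 and 27 reads, 2.07-fold), *Rpl10a* (185, 13 and 28 reads, 2.22-fold) and *Rpl7a* (161, 8 and 23 reads, 2.33-fold). The counting intervals of these 4 genes overlap one another and also include 2, so their order is not resolved. All 4 nevertheless held a called site.

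Of the small subunit genes, 29 of 31 had a FLI1 site (43% of all protein-coding genes) and 28 reached 2-fold (34.2%). *Rps14*, whose human counterpart is lost in the 5q- syndrome, a marrow disease in which megakaryocytes are also abnormal, had 420 FLI1, 14 RUNX1 and 14 input reads (9.70-fold, 6.11 to 19.1). *Rps18* had 470 FLI1, 17 RUNX1 and 18 input reads (8.56-fold, 5.64 to 15.4). *Rps19*, the gene most often mutated in Diamond-Blackfan anaemia, had 542 FLI1, 13 RUNX1 and 22 input reads (8.16-fold, 5.56 to 13.7). The intervals of these 3 genes overlap.

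The lower end of the small subunit held *Rps9* with 129 FLI1, 13 RUNX1 and 22 input reads (1.95-fold), *Rps10* with 67, 7 and 20 reads (1.12-fold, 0.694 to 2.01) and *Rps2* with 57, 3 and 27 reads (0.716-fold, 0.454 to 1.20). The small subunit genes had a median of 252 FLI1 reads and the large subunit genes one of 201. In folds the medians were 4.16 and 3.76, a large minus small difference of -0.15 on the log2 scale. This value depended on the window and the genes counted, at -0.52 within 500 bp, -0.74 with only the 1 kb upstream, -0.35 at RefSeq starts (57 members) and -0.04 without shared promoters (65 members). The difference was not tested.

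The stalk of the large subunit, which recruits translation factors, is made of *Rplp0*, *Rplp1* and *Rplp2*. *Rplp2* had 312 FLI1, 8 RUNX1 and 16 input reads (6.36-fold), *Rplp0* had 157, 6 and 16 reads (3.21-fold), and *Rplp1* had 236, 3 and 27 reads (2.92-fold). All 3 were CpG-dense and held a site (72.5% of CpG-dense promoters and 43% of all genes), and their counting intervals overlap (4.08 to 11.9, 2.02 to 6.08 and 2.02 to 4.68). *Rpsa*, also known as the laminin receptor, had 286 FLI1, 2 RUNX1 and 14 input reads (6.61-fold).

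Among the 9 members listed for Diamond-Blackfan anaemia the median was 256 FLI1 reads and 4.67-fold, and 8 of 9 had a site and reached 2-fold, beside 97.4% and 94.9% of all members and 43% and 34.2% of all protein-coding genes. Beside *Rps19*, the higher ones were *Rps7* (310 FLI1, 9 RUNX1 and 14 input reads, 7.16-fold), *Rps26* (318, 9 and 19 reads, 5.51-fold) and *Rpl11* (256, 9 and 18 reads, 4.67-fold). *Rpl11* and *Rpl5* are the proteins that bind 5S rRNA and the p53 inhibitor MDM2. *Rpl5* had 150 FLI1, 8 RUNX1 and 20 input reads (2.48-fold), *Rpl35a* had 139, 5 and 19 reads (2.42-fold), and *Rps24* had 124, 5 and 17 reads (2.40-fold). With *Rps10* as the exception, the list thus ran from 2.40 to 8.16-fold, within the range of the other members. The exception holds for the 5′ end of the gene record only. At its RefSeq start, described below, *Rps10* had 4.52-fold and a site.

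Properties of the promoters and of the reads moved with some of these values. The 4 members on the X chromosome had a median of 136 FLI1 reads and 17.5 input reads, against 213 and 18 on autosomes. At the 13 members within 1 kb of the TSS of another protein-coding gene the median fold was 2.90, whereas it was 4.11 at the other 65. Median FLI1 reads were 179 and 211, and summed FLI1 reads 3.25 (3.13 to 3.37) and 3.40 (3.34 to 3.45) times the genome-wide rate. Summed input reads were 0.949 (0.842 to 1.07) and 0.757 (0.714 to 0.802) times that rate. Of the 8 members with the lowest fold, 4 shared their promoter in this way and 4 were not CpG-dense, compared with 1 and 0 of the 8 with the highest fold. Both traits were scored at the 5′ end of the gene record. The RefSeq start, used further below, lay over 100 bp from it at 5 of the 8 lowest. Among the 8 highest this held for 2 of the 6 with a matched RefSeq start. Small nucleolar RNA genes lay inside 30 of 78 members (38.5%), compared with 1.2% of all genes.

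Ribosomal proteins have many processed pseudogenes, and only reads that map to a single place were deposited. Within 1 kb of the TSS a median of 95.5% of 50-base and 93.0% of 34-base stretches of the members occurred once in mm9, against 99.9% and 98.5% in a sample of 2237 protein-coding genes taken at regular steps along the annotation. *Rpl37a* was lowest at 79.0% and 70.6%. The part of these properties in the folds was not tested. Across the 78 members, which share their libraries, Spearman's rho of FLI1 with input reads was 0.048.

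**Figure D3:**
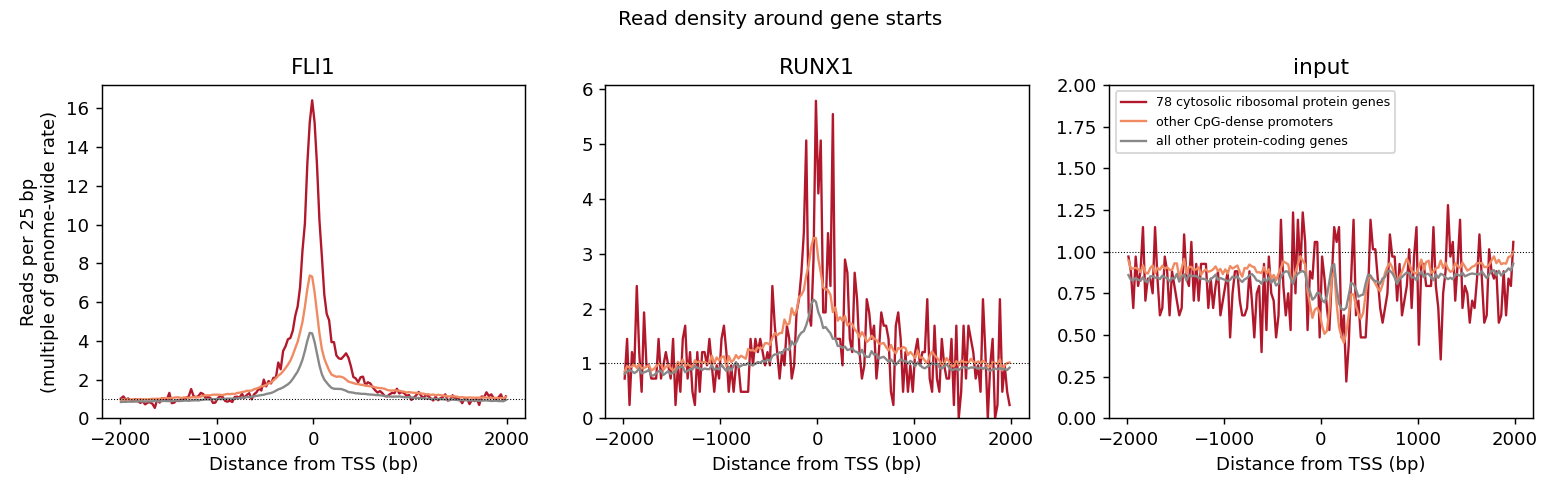
Mean FLI1, RUNX1 and input reads per 25 bp as a multiple of the genome-wide rate, against distance from the TSS (bp, positive downstream), for the 78 cytosolic ribosomal protein genes, other CpG-dense promoters and all other protein-coding genes. FLI1 reads of the members peaked at 16.4 times the rate just upstream of the TSS, above 7.37 and 4.41 in the other groups, and the RUNX1 and input curves of the members are ragged because each bin holds few reads.

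FLI1 reads were concentrated at the TSS. In the profile of read density around gene starts, the members' FLI1 reads were highest in the 25 bp just upstream of the TSS, with 1078 reads or 16.4 times the genome-wide rate, and fell to 0.965 times the rate in the outer parts of the profile. The highest bin of other CpG-dense promoters was 7.37 times and that of all other genes 4.41 times the rate. Input reads showed no peak there, at 0.809 times the rate in the 150 bp upstream of the TSS (110 reads), and were lowest in a bin 250 to 275 bp downstream with 5 reads.

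For the 76 members with a site, the summit lay a median of 44.5 bp from the TSS in either direction, closer than the 103 bp of all genes with a site. It was within 100 bp at 52 members (68.4%, compared with 49.5% of all genes with a site) and upstream at 45, the latter beside 5990 of 9610 genes with a site, a similar share. In this respect the mitochondrial ribosomal protein and proteasome genes were alike, with medians of 41 and 45 bp.

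**Figure D4:**
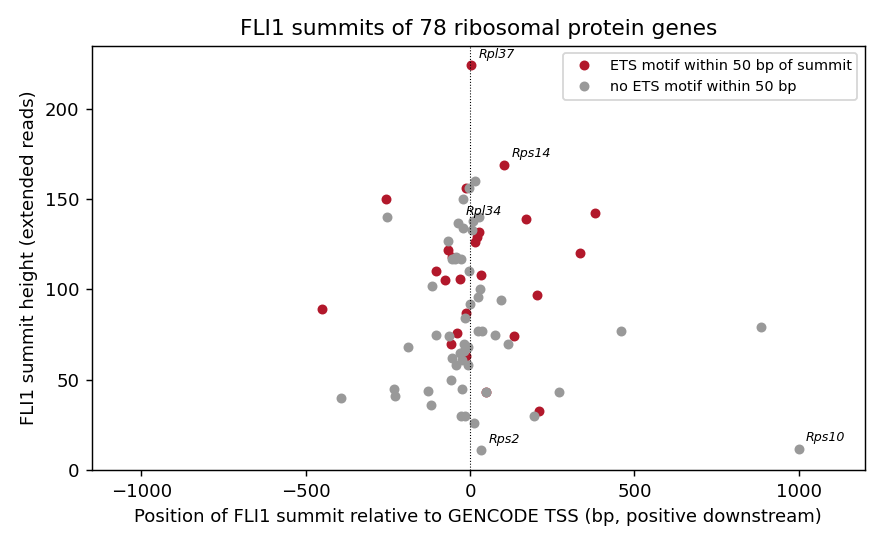
Position of the FLI1 summit relative to the TSS of the gene record (bp, positive downstream) against summit height (number of overlapping extended reads) for the 78 members, with the 25 members that have CCGGAAG within 50 bp of the summit in red. Most summits lie near the TSS, *Rpl37* is highest at 224, and the summits of *Rps2* and *Rps10*, which have no site, are at 11 and 12 reads.

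The 5′ end of a gene record is the outermost of its transcripts and need not be the start in use, and so the counts were repeated at RefSeq starts. Promoter sequences of RefSeq on the assembly GRCm38.p6 were located in mm9 by exact match, which placed 14787 protein-coding genes and 57 members, and 21 members had no match. RefSeq and GENCODE starts differed by at most 10 bp for 29 of these 57 members and by over 100 bp for 11. At the RefSeq starts all 57 members had a FLI1 site (47.3% of matched genes) and 55 reached 2-fold (37.8%). The summit was within 100 bp of the start at 47 members (82.5%, compared with 51.4% of matched genes with a site) and upstream at 47 (also 82.5%, compared with 67.4% of those genes).

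Both members without a site were among those moved. The RefSeq start of *Rps10* lies 1385 bp downstream of the gene record's 5′ end, and there it had 169 FLI1, 6 RUNX1 and 12 input reads (4.52-fold) with its summit 47 bp upstream. For *Rps2* the shift was 1947 bp and the counts became 139 FLI1, 2 RUNX1 and 19 input reads (2.42-fold). *Rpl13a*, moved by 7672 bp, went from 1.89 to 3.01-fold with 269 FLI1 reads. All 3 were thus higher at the RefSeq start and had a site there, although *Rps2* and *Rpl13a* remained below the median of the 57 members (4.00). In contrast, *Rps9*, moved by only 48 bp, went from 1.95 to 1.89-fold and *Rpl39*, moved by 180 bp, had 1.96-fold.

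The 120 bases upstream of the RefSeq starts of *Rps10* (chr17:27772190-27772309, minus strand) and *Rps2* (chr17:24856888-24857007, plus) are given because these starts, and not those of the gene records, held the FLI1 sites. They are read from mm9 on the strand of the gene with GGAAG in capitals, which occurred once for *Rps10* and on neither strand for *Rps2*. The summit of *Rps10* lies within its stretch, whereas that of *Rps2*, at -163 bp from the RefSeq start, lies outside the bases shown.
Rps10: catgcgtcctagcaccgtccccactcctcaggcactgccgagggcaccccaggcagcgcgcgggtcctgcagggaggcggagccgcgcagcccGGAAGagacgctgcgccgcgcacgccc
Rps2: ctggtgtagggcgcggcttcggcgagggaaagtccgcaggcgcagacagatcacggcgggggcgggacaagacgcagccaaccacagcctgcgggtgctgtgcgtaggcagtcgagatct

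Pyrimidine runs were measured around the RefSeq starts, whether or not they began at the start itself. The longest run of C or T on the sense strand that overlaps the 20 bp on either side of the start had a median of 7 bases over the 57 members and 5 over all matched genes. Runs of at least 8 bases occurred at 28 of 57 members (49.1%, compared with 20.6% of matched genes). To let the range be seen, 30 bases around the start are given for 3 of the longest runs and for a short one, with the longest run within the 30 bases in capitals. The positions are chr2:26766312-26766341 (plus strand) for *Rpl7a*, chr2:38860637-38860666 (minus) for *Rpl35*, chr14:19103486-19103515 (minus) for *Rpl15* and chr16:55966373-55966402 (plus) for *Rpl24*. The first 3 have runs of 21, 18 and 17 bases, whereas the longest run of *Rpl24*, of 3 bases, lies outside the printed bases.
Rpl7a: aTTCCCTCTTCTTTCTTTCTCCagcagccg
Rpl35: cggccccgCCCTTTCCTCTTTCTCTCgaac
Rpl15: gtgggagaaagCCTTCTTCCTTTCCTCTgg
Rpl24: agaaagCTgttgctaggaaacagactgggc

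The ETS sequence CCGGAAG, searched on both strands, lay within 50 bp of the FLI1 summit at 25 of 78 members (32.1%, 21.9 to 43.6%), compared with 11.2% of all protein-coding genes and 20.2% of CpG-dense promoters. Windows of the same length 500 bp to either side of the summit held it in 2 of 156 cases (1.28%). Shares at mitochondrial ribosomal protein genes (25 of 77) and proteasome genes (13 of 42) lay within the interval of the members. A site together with CCGGAAG at its summit was present in 25 of 78 members, against 10.4% of all protein-coding genes and 19.6% of CpG-dense promoters. When only genes with a site were counted, the shares were 32.9% for the members (22.5 to 44.6%) and 24.1% for all genes, and the interval includes the latter.

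The shorter core GGAAG, which CCGGAAG contains, was found at the summit of 66 of 78 members (84.6%, 74.7 to 91.8%). The share was 48.4% for all genes, 58.4% for CpG-dense promoters and 29.5% for the members' windows to either side. At the summits of mitochondrial ribosomal protein genes the core was found in 50 of 77 (64.9%, 53.2 to 75.5%) and at those of proteasome genes in 29 of 42 (69.0%, 52.9 to 82.4%). The interval of the proteasome genes overlaps with that of the members, and that of the mitochondrial set does so only narrowly. Overlap does not show that the shares are alike, and the difference was not tested. A sequence of 5 bases is frequent in any window, as the values to either side show.

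Members with CCGGAAG at the summit had a median of 256 FLI1 reads, 4.16-fold and a summit height of 110 (n = 25). The 53 others had 200 reads, 3.65-fold and a height of 75. Nonetheless *Rpl34* and *Rps19* were among the highest without the longer form within 50 bp of the summit, and *Rpl39* was low with it. *Rpl34* did have a match further away, 59 bases downstream of the TSS. From 300 bases upstream to 100 downstream of the TSS 27 members (34.6%) had a match, compared with 12.3% of all genes and 21.4% of CpG-dense promoters. Of their 30 matches, 26 began within 100 bases of the TSS and 19 were on the sense strand.

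Other sequences were searched in the same way, near the TSS or at the FLI1 summit as named. AAGATGG, bound by YY1, lay within 100 bp of the TSS in 12 of 78 members (15.4%, 8.21 to 25.3%), beside 5.40% of all genes. It also lay there in 13 of 77 mitochondrial ribosomal protein and 9 of 42 proteasome genes. Within 50 bp of the summit it was in 3 members (3.85%, 0.80 to 10.8%), an interval that includes the 2.43% of all genes. CCGCCC, bound by SP factors, was found near the TSS of 37 of 78 members (47.4%, 36.0 to 59.1%) and of 8952 of 22367 genes. The share of all genes lies within that interval, whereas the share of CpG-dense promoters (68.0%) lies above it. The RUNX sequence TGTGGT was at the FLI1 summit of 0 of 78 members, with an upper limit of 4.62%, beside 6.88% of all genes, 4.32% of CpG-dense promoters and 0 of 42 proteasome genes. The share of CpG-dense promoters is below that limit. TGCGGT was there in 2 (2.56%, beside 2.85% of all genes).

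RUNX1 reads were more frequent at these promoters than in the genome at large, although to a lesser degree than FLI1 reads. Summed over the 78 members they were 2.10 times the input (1.90 to 2.32), against 1.51 for all genes and 2.03 for CpG-dense promoters. The last lies within the interval of the members, as do 1.94 for the mitochondrial ribosomal protein and 2.03 for the proteasome genes. No member was without a RUNX1 read, while 168 of 9879 CpG-dense promoters and 1746 of 22367 genes were. The same held for 0 of 42 proteasome and 1 of 77 mitochondrial ribosomal protein genes, so this does not set the members apart.

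A RUNX1 call, at least 7 reads and 2 times the genome-wide rate, was reached by 20 of 78 members (25.6%, 16.4 to 36.8%). The same call was made for 16.9% of all protein-coding genes and 30.6% of CpG-dense promoters, as well as for 29 of 77 mitochondrial ribosomal protein and 15 of 42 proteasome genes. The members with most RUNX1 reads were *Rps18* with 17 (exact 95% Poisson interval 9.90 to 27.2), *Rpl37* and *Rps14* with 14 each (7.65 to 23.5), and *Rps19*, *Rpl10a* and *Rps9* with 13 each (6.92 to 22.2). All these intervals include the value of the others. The first 4 were also among the 8 highest for FLI1, whereas *Rpl10a* and *Rps9* were among the 8 lowest. Over all members, Spearman's rho of FLI1 with RUNX1 reads was 0.348, and it was 0.669 over all genes.

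At the FLI1 summits themselves, the 76 members with a site had 109 RUNX1 reads within 100 bp, 3.36 times the genome-wide rate (2.76 to 4.05). The multiple was 3.74 for all genes with a site and 1.04 for genes without one. Among CpG-dense genes with a site it was 3.76, and for the mitochondrial ribosomal protein and proteasome genes with a site it was 4.15 (3.47 to 4.92) and 4.92 (3.92 to 6.11). The interval of the proteasome genes overlaps with that of the members only narrowly.

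Since FLI1 summits of the members were high, genes with a site were also compared within 4 bins of summit height with about equal numbers of genes. In the highest bin the 38 members had 59 RUNX1 reads, 3.64 times the rate (2.77 to 4.69), whereas the other 2357 genes had 5.56 times (5.42 to 5.71) and the other CpG-dense genes 4.91 times (4.76 to 5.06) with similar median heights (124, 119 and 120.5). These intervals do not overlap, but they cover counting error in 1 library only, and the bins were chosen after the values of the whole set were seen. In the lower 3 bins the intervals of the members, with 5, 11 and 34 reads, included the value of the other genes.

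**Figure D5:**
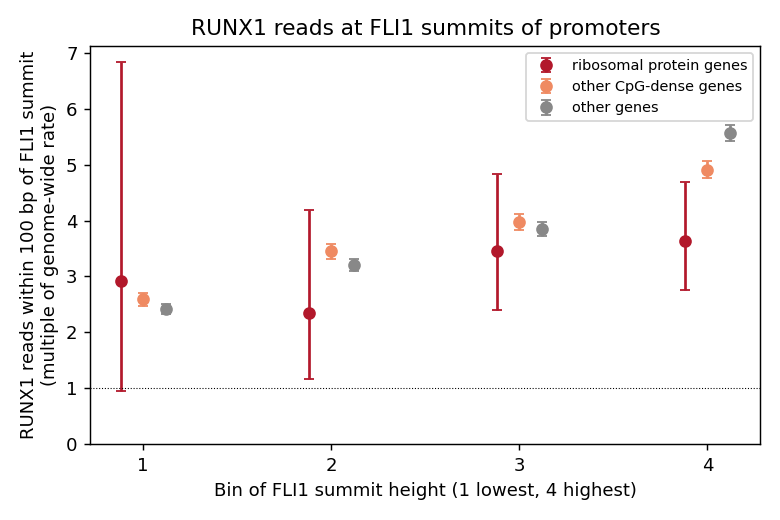
RUNX1 reads within 100 bp of the FLI1 summit as a multiple of the genome-wide rate, for genes with a FLI1 site in 4 bins of summit height, with exact 95% Poisson intervals. Values of ribosomal protein genes (red) lie at 2.93, 2.34, 3.46 and 3.64 from the lowest to the highest bin, while those of other genes (grey) go from 2.42 to 5.56.

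Genes of related function outside the naming rule had FLI1 sites as well. *Fau* and *Gnb2l1*, which also encode ribosomal proteins, had 163 and 365 FLI1 reads, 21 and 23 input reads, and folds of 2.58 and 5.27. Of 15 other genes with terminal oligopyrimidine mRNAs, mostly translation factors, 15 had a site (43% of all genes and 72.5% of CpG-dense promoters) and 13 reached 2-fold (34.2% and 61.3%), and 13 of the 15 were CpG-dense. The exceptions were *Eef1a1*, an elongation factor, with 76 FLI1 and 30 input reads (0.858-fold) and *Nap1l1* with 78 and 19 reads (1.36-fold).

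Ribosomal protein paralogs were unlike one another. *Rpl3l*, expressed in muscle, had 73 FLI1 and 34 input reads (0.730-fold), and *Rpl39l*, expressed in testis, had 65 and 20 reads (1.09-fold), both without a site. *Rps27l* had a site with 194 and 19 reads (3.37-fold), and so did *Rpl7l1* and *Rpl22l1*, which are counted among the 78 members.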

How the data were processed

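FLI1, RUNX1 and input reads of MK Mat were analysed from 3 libraries. Per the labels and the study's methods, reads were mapped by the authors to mm9 with Bowtie (version not given in the sources used here), filtered for unique mapping, and deposited the chromosome, start, end and strand of each read. The deposited values are positions with no normalization, and read counts were made from them. No FLI1 or RUNX1 read repeats the position and strand of another, whereas 3.24% of input reads do, and these were reduced to 1 per position. Of the FLI1 reads compared with mm9, 9654 of 10000 matched it when a few differing bases were allowed. The labels and methods differ on the embryonic day, on how the input was fragmented, on the library kit and on the DNA amount. SICER 1.1 and MACS 1.4, which the labels name, were not run.

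Reads were moved 75 bp in the 3′ direction, which is the middle of the 150 bp fragments of the methods, and counted within 1 kb of the 5′ end of each GENCODE M1 gene record. Folds were calculated from reads per library total after adding 1 read. A FLI1 site was the best 250 bp window, in steps of 10 bp, with a Poisson p under 1e-05 against whichever was higher, the genome-wide rate (8.42 reads) or the scaled input over 1, 5 or 10 kb. Motif letters were searched on both strands of mm9. Shares of genes have exact Clopper-Pearson 95% intervals, which treat genes as independent draws and hold no error of read counts. Read counts have exact Poisson and their ratios exact binomial 95% intervals, which cover counting error only. Read depth limits RUNX1 most. Python 3.11.15, numpy 2.4.6, pandas 2.3.3 and scipy 1.17.1 were used, and counting and site calls were tested on simulated data.

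The rule for the members uses gene names and exon numbers and no reads, but the rule and the gene lists were chosen with earlier results of these data known. Members named are the 8 highest and 8 lowest in FLI1 fold, the 5 with most RUNX1 reads (6 with ties), the stalk genes and *Rpsa*, those mutated in Diamond-Blackfan anaemia and those without a site. Others (*Rpl37a* and the members with printed start sequences) were named after their values were seen. Values of a few single genes are not reported here. Alternatives were other windows, no shift, repeated input positions kept, no input, another pseudocount, a filter on input reads, another TSS, FLI1 thinned to the RUNX1 depth, a stricter p, shared promoters left out and other motif settings. RefSeq starts and the set without *Rpl7l1* and *Rpl22l1* were added after the data were seen. Where RefSeq gave several promoters for a gene, the first was used.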

Additional observations from a re-analysis of the deposited data

How the results depend on the processing

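The counts of members with a FLI1 site and with at least 2-fold FLI1 stayed within 1.5 times their main values under every alternative run. With all 78 members these were 51 to 76 sites and 66 to 76 members at 2-fold, and among the 57 members with a matched RefSeq start 55 to 57 sites and 53 to 55 members at 2-fold. The lowest number of sites, 51 of 78, came with FLI1 thinned to the RUNX1 depth, where 14.4% of all genes had a site. The median FLI1 fold was 5.90 within 500 bp, 2.53 within 2 kb, 3.08 without input, 3.32 with a pseudocount of 5 and 4.28 in the thinned FLI1 library, and above that of all genes in each case (1.47, 1.21, 1.04, 1.14 and 1.76). The summed RUNX1 fold was 2.79 within 500 bp, 1.64 within 2 kb and 1.66 without input, beside 1.82, 1.28 and 1.23 for all genes. With repeated input positions kept it was 2.13 for the members and 1.06 for all genes. For the 57 members with a matched RefSeq start, CCGGAAG was at the summit of 16 by the gene record and of 18 by the RefSeq start (the latter beside 12.1% of all matched genes), and in the thinned FLI1 library at that of 19 of 78 (7.81% of all genes). The core GGAAG was at the summit of 66 of 78 (48.4% of all genes). The large minus small subunit difference was -0.74 with only the 1 kb upstream counted, and the cause was not tested. No direction turned under any alternative. No paired analysis was possible because each antibody has 1 library.

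With 1 library per antibody, differences between genes are seen without the spread between cultures. Single RUNX1 counts of the members, at most 17, do not resolve their order. Starts from gene records place some windows away from the start in use, as for *Rps10*, *Rps2* and *Rpl13a*, and 21 members had no matched RefSeq start.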
